A study of Rattus norvegicus with 17 samples.

Results

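Cytochrome P450 genes were measured in the liver of rats (Rattus norvegicus) with and without bile duct ligation, and with and without ghrelin after ligation. The set holds every gene of the array annotation whose symbol is Cyp followed by a digit, apart from 11 genes of bile acid synthesis or sex-dependent expression that are not described here (Cyp7a1, Cyp7b1, Cyp8b1, Cyp27a1, Cyp2c11, Cyp2c12, Cyp2c13, Cyp2c7, Cyp2a2, Cyp3a2 and Cyp3a18). Only probe sets that name 1 gene were used. The rule found 47 members among 14217 genes with such a probe set, on 55 probe sets: 3 in the Cyp1 family, 20 in Cyp2, 2 in Cyp3, 10 in Cyp4 and 12 in other families.

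The sham group (n = 6) had an abdominal incision and saline. The ligated saline group (n = 6) had the bile duct tied off and saline. The ligated ghrelin group (n = 5) had the same ligation and recombinant ghrelin, a stomach hormone that releases growth hormone and stimulates appetite, at 10 µg per kg per day. All 3 groups carried a subcutaneous osmotic mini-pump. Operations were at week 7 and livers were taken at week 9, and the labels do not say from when the weeks are counted, nor give strain or sex. Each array came from 1 rat, so that the spread is between rats. No group received ghrelin without ligation.

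P450 enzymes are heme proteins that insert an oxygen atom into their substrates, using electrons passed on by NADPH P450 reductase or, in mitochondria, by ferredoxin. In liver, members of families Cyp1 to Cyp3 are best known for oxidising drugs, toxins and steroids, and members of Cyp4 for hydroxylating the end of fatty acids and eicosanoids. Several are switched on by ligand-activated factors: Cyp1 genes by the aryl hydrocarbon receptor, Cyp2b and Cyp3a genes by the constitutive androstane receptor (CAR) and the pregnane X receptor (PXR), and Cyp4a genes by PPAR alpha. Most are made chiefly by hepatocytes, while Cyp1b1 is known mainly from mesenchymal cells.

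Values are log2 of the deposited array intensity. A probe set was tested where 5 or more arrays exceeded a log2 level of 3.95, the median of all deposited values. By that filter 34 members were tested among 9736 genes, and a gene was called changed at an adjusted p under 0.05 in limma. The other 13 are accounted for at the end of the results. Because probes bind with different strength, levels are compared between groups for 1 gene and never between genes. The RNA came from whole liver, so fewer cells of a type and less RNA per cell cannot be told apart in any result that follows. Markers of hepatocytes were high, as the label liver requires, with a mean log2 value of serum albumin (Alb) of 15.9 in sham and 15.8 in both ligated groups. The highest value of any probe set on any array was 15.9, so a loss of Alb signal could be compressed, which was not tested.

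Promoters are shown here for the members the results turn on: Cyp4f5, which rose most after ligation, with Cyp4f1 and Cyp4f6 of the same subfamily and chromosome, which fell; Cyp3a9, which fell most, with Cyp3a23-3a1 of the same family; and Cyp2t1, the only member called with ghrelin. They are RefSeq sequences of the rat assembly GRCr8, 250 bases before to 50 after the start of each gene, 300 bases in all, printed 5′ to 3′ on the strand of the gene. Capitals mark matches on either strand to short motifs. The core of the TATA box was searched as TATAAA. For nuclear receptor sites the core is AGGTCA. The AP-1 site was searched as TGACTCA. For the aryl hydrocarbon receptor the core is GCGTG. The CCAAT box was searched by its name. No matches overlap in the sequences shown.
Cyp4f5, chr7:12194387-12194686, plus strand: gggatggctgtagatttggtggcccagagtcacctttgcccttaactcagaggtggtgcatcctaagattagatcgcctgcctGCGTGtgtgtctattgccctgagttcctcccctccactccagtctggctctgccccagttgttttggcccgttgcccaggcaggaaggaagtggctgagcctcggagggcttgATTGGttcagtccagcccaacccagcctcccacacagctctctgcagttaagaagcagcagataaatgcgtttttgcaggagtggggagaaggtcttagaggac
Cyp4f1, chr7:12672504-12672803, minus strand: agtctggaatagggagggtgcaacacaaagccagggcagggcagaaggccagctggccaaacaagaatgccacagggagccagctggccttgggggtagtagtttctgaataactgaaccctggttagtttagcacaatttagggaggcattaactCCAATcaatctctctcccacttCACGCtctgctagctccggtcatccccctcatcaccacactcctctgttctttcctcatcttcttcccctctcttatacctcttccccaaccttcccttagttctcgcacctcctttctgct
Cyp4f6, chr7:12708329-12708628, minus strand: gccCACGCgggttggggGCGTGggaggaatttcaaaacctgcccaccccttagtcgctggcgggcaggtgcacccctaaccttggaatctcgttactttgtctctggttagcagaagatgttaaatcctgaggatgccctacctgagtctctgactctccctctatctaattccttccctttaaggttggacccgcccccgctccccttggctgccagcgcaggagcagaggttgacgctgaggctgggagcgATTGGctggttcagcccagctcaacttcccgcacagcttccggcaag
Cyp3a9, chr12:21960111-21960410, minus strand: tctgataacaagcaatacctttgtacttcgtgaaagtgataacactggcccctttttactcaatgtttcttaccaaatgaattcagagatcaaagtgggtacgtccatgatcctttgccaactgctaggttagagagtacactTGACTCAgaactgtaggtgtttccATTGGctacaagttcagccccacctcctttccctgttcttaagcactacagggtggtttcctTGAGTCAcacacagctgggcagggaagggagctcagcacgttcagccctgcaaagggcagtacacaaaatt
Cyp3a23-3a1, chr12:14398754-14399053, minus strand: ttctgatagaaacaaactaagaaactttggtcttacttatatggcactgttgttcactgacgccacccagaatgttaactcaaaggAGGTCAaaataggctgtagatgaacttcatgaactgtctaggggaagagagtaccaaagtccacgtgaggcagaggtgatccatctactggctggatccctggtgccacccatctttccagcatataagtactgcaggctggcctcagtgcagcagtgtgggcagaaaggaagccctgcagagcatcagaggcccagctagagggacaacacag
Cyp2t1, chr1:91575260-91575559, plus strand: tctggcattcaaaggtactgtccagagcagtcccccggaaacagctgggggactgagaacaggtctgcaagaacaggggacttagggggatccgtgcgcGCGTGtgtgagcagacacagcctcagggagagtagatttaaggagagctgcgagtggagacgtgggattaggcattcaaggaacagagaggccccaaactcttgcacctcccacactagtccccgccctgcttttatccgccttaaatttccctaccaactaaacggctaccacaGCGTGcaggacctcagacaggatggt
In 3 of the promoters shown, the start lies inside the span that RefSeq lists for the gene, by 1587 bases in Cyp2t1, 399 in Cyp4f1 and 70 in Cyp4f5, so that the windows of Cyp2t1 and Cyp4f1 lie wholly within the gene.

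Of the 34 tested members, 27 had a promoter in the table, and Cyp4f4 and Cyp4f17 were among the rest. The start lay inside the listed span in 14 of the 27. GCGTG was in 10 of 27 (37%), beside 29.7% of all 33469 promoters of the table. CCAAT was in 11 (40.7%, beside 37.5%), AGGTCA in 7 (25.9%, beside 16.2%), TATAAA in 5 (18.5%, beside 14.2%) and TGACTCA in 2 (7.41%, beside 4.63%). Both AP-1 matches of Cyp3a9 are at -107 and -21 relative to its start, counted at the lowest base of the match. In the Cyp4f genes, GCGTG was at -167 in Cyp4f5, at -72 in Cyp4f1 and at -247 and -233 in Cyp4f6. A match is a run of letters and was not tested for binding of any factor.

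Ligation was accompanied by lower signals of most P450 genes. Of the 34 tested members, 18 fell (52.9%) and 4 rose (11.8%) in ligated saline against sham, while 12 were not called. The 4 that rose were Cyp4f5, Cyp1b1, Cyp20a1 and Cyp2c22, and the steepest decreases were those of Cyp3a9, Cyp4b1, Cyp2d4 and Cyp2t1. Among all genes tested, 27.2% were called lower and 37.5% higher, 64.7% in all. The called share of the members, 64.7%, equals that background, and the split of directions is the other way round. The median change of the members was -0.62 on the log2 scale, against 0.07 over all genes tested. Their median change regardless of sign was 0.76, against 0.44 over all genes. In 17 of 34 members (50%) the 6 ligated and 6 sham values did not overlap, beside 44.5% of all genes. The counts are over tested members only, and the filter itself kept Cyp4f5 through the ligated arrays and Cyp4b1 mainly through the sham arrays.

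Scaling moved the level of all genes. With array medians set equal the median change of all genes was -0.12 and that of the members -0.81, and 22 members fell and 4 rose. After quantile normalization the medians were -0.05 and -0.54, and 19 members fell and 5 rose. Over all genes, the higher share of all calls was 58.0% as deposited, 46.7% after quantile normalization and 41.7% with equal medians. The share called lower was then 36.5% after quantile normalization and 40% with equal medians, beside 55.9% and 64.7% of the members. No member called with ligation lost its call under any alternative tried.

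**Figure D1:**
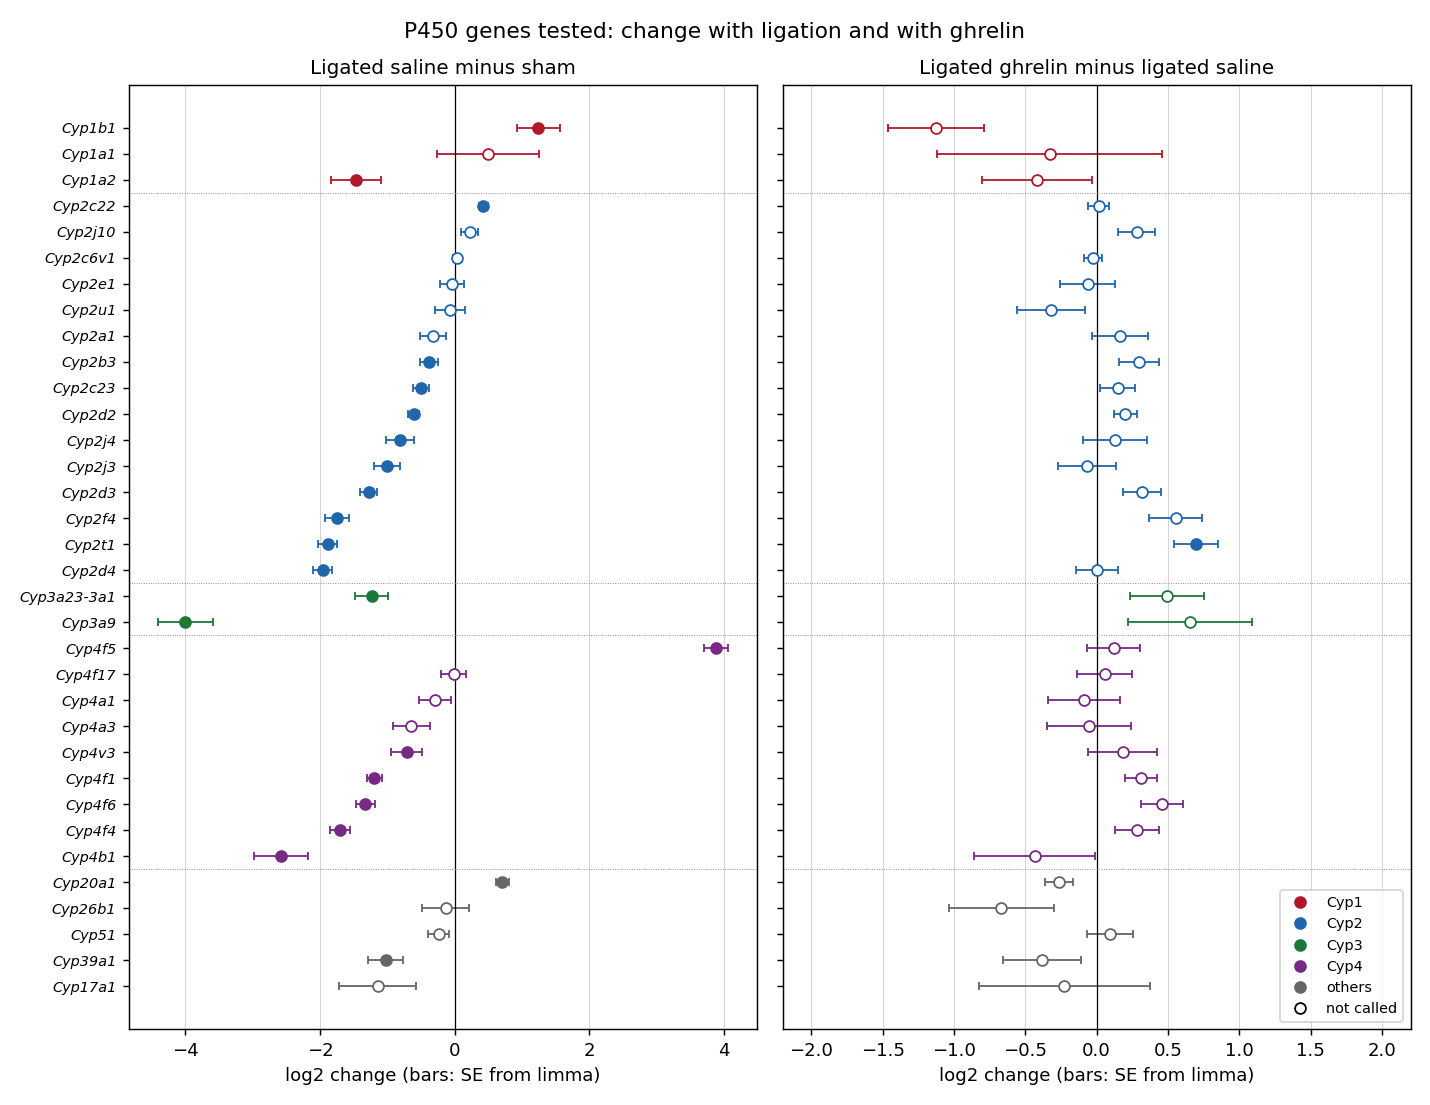
Log2 change ± SE (horizontal axis) of the 34 tested P450 genes (rows, by family), for ligated saline minus sham on the left and ligated ghrelin minus ligated saline on the right, on different scales. Filled points passed an adjusted p under 0.05 in limma: 22 genes on the left, from -4.0 for Cyp3a9 to 3.88 for Cyp4f5, and 1 gene, Cyp2t1, on the right.

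The Cyp1 family, whose members oxidise planar aromatic compounds and are classical targets of the aryl hydrocarbon receptor, split in direction. All 3 members were tested, and 1 fell, 1 rose and 1 was not called, beside 27.2% of all genes lower and 37.5% higher. Cyp1a2, the hepatic enzyme that metabolises caffeine, ran from 13.19 to 14.03 in sham with a median of 13.91. In ligated saline it ran from 10.51 to 13.11 with a median of 12.53. The groups did not overlap, and Cyp1a2 fell by 1.46 ± 0.368 on the log2 scale (2.75-fold lower, adjusted p = 0.00251). Cyp1b1, an enzyme that hydroxylates estrogens and polycyclic hydrocarbons, lay between 4.34 and 4.64 in all 6 sham rats, with a median of 4.54. The ligated saline rats had 6.57, 7.09, 5.96, 4.42, 5.29 and 5.29 in the order of their numbers. Thus 5 of 6 ligated values were above every sham value and that of ligated saline 4 was inside the sham range. Cyp1b1 rose by 1.24 ± 0.320 (2.37-fold, adjusted p = 0.00295). Markers of stellate cells and myofibroblasts rose as well, by a median of 3.14, and their part in this result was not tested.

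Cyp1a1, the inducible relative of Cyp1a2, exceeded the filter level on only 6 of 17 arrays. It ran from 2.14 to 5.39 in sham (median 3.08) and from 1.86 to 6.00 in ligated saline (median 3.55), so that the groups overlapped almost fully. Its change was 0.49 ± 0.753 and was not called (adjusted p = 0.586). The non-P450 targets of the aryl hydrocarbon receptor listed beside the family had 3 tested genes of 8 listed. Of these, Gsta1, a glutathione transferase, fell by 0.69 ± 0.138 (adjusted p = 0.000399), and Nqo1, a quinone reductase, changed by 0.38 ± 0.317 (adjusted p = 0.307).

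In the Cyp2 family, 9 of 15 tested members (60%) fell, 1 rose and 5 were not called. The median change was -0.50, and the shares over all genes were 27.2% lower and 37.5% higher. The steepest decreases were those of Cyp2d4, Cyp2t1 and Cyp2f4. Cyp2d4, which belongs to the subfamily that oxidises basic drugs, ran from 8.37 to 9.13 in sham (median 8.81) and from 6.45 to 6.93 in ligated saline (median 6.91). The groups were separated by more than the range within either, and the gene fell by 1.96 ± 0.141 (3.88-fold lower, adjusted p = 9.29e-09). A further probe set of Cyp2d4 gave a change of -1.93 ± 0.231. Cyp2t1 ran from 9.34 to 9.80 in sham (median 9.41). It read 7.05, 7.81, 7.34, 8.14, 7.66 and 7.57 in ligated saline. Every ligated value was below every sham value, and Cyp2t1 fell by 1.88 ± 0.146 (3.69-fold lower, adjusted p = 1.96e-08). Cyp2f4, from the subfamily that bioactivates naphthalene in lung, ran from 10.11 to 10.45 in sham (median 10.25) and from 8.04 to 9.12 in ligated saline (median 8.53). It also separated the groups, falling by 1.74 ± 0.177 (3.34-fold lower, adjusted p = 3.78e-07). Cyp2t1 and Cyp2f4 lie next to each other on chromosome 1, at 91573923 to 91579215 and 91543768 to 91557553 in GRCr8.

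The rest of the Cyp2d genes fell less. Cyp2d3 ran from 13.65 to 13.78 in sham and from 11.88 to 12.85 in ligated saline, and fell by 1.27 ± 0.126 (adjusted p = 2.74e-07). Cyp2d2 ran from 14.17 to 14.31 in sham and from 13.42 to 13.82 in ligated saline, and fell by 0.61 ± 0.0787 (adjusted p = 5.05e-06). All 3 Cyp2d genes thus had separate groups, as did 44.5% of all genes tested. They lie on chromosome 7 in GRCr8, with Cyp2d4 starting at 115762662, Cyp2d3 at 115797785 and Cyp2d2 at 115815212.

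Among the relatives that epoxidise arachidonic acid, 3 fell. Cyp2j3 and Cyp2j4 fell by 1.01 ± 0.196 (adjusted p = 0.000292) and 0.81 ± 0.213 (adjusted p = 0.00343), and a further Cyp2j3 probe set gave -0.79. Cyp2c23 fell by 0.50 ± 0.119 (adjusted p = 0.00166), with no overlap between the groups. Cyp2j10 was not called, at 0.22 ± 0.122 (adjusted p = 0.125), and its change ran from -0.15 to 0.28 over the alternatives tried. Among 11 tested partners in arachidonate metabolism, 7 rose and 1 fell, beside 37.5% of all genes higher and 27.2% lower. The median of these partners was 0.97. Of these, Lta4h, which makes leukotriene B4, rose by 1.42 ± 0.0932 (adjusted p = 3.32e-09) and Tbxas1, thromboxane synthase, by 2.00 ± 0.188 (adjusted p = 1.57e-07).

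Some of the most strongly hybridising Cyp2 probe sets moved little. Cyp2c22, which hydroxylates retinoic acid, ran from 14.24 to 14.64 in sham (median 14.53) and from 14.86 to 14.97 in ligated saline (median 14.94). Its groups did not overlap, and it rose by 0.43 ± 0.0694 (1.34-fold, adjusted p = 5.44e-05). Cyp2e1, the ethanol and acetaminophen oxidising enzyme, changed by -0.04 ± 0.183 (adjusted p = 0.863). Cyp2c6v1 changed by 0.03 ± 0.0578 (adjusted p = 0.657), but by 0.16 after quantile normalization (adjusted p = 0.0230) and by -0.16 with array medians set equal (adjusted p = 0.0453), so that its direction was set by the scaling. The highest value of any probe set on any array was 15.9, and whether signals near it were compressed was not tested. Cyp2b3 fell by 0.38 ± 0.132 (adjusted p = 0.0189). Cyp2a1, a testosterone hydroxylase, changed by -0.32 ± 0.187 (adjusted p = 0.145) and was called lower with equal array medians, at -0.51 (adjusted p = 0.0273). Cyp2u1, a fatty acid hydroxylase, changed by -0.07 ± 0.224 (adjusted p = 0.802).

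**Figure D2:**
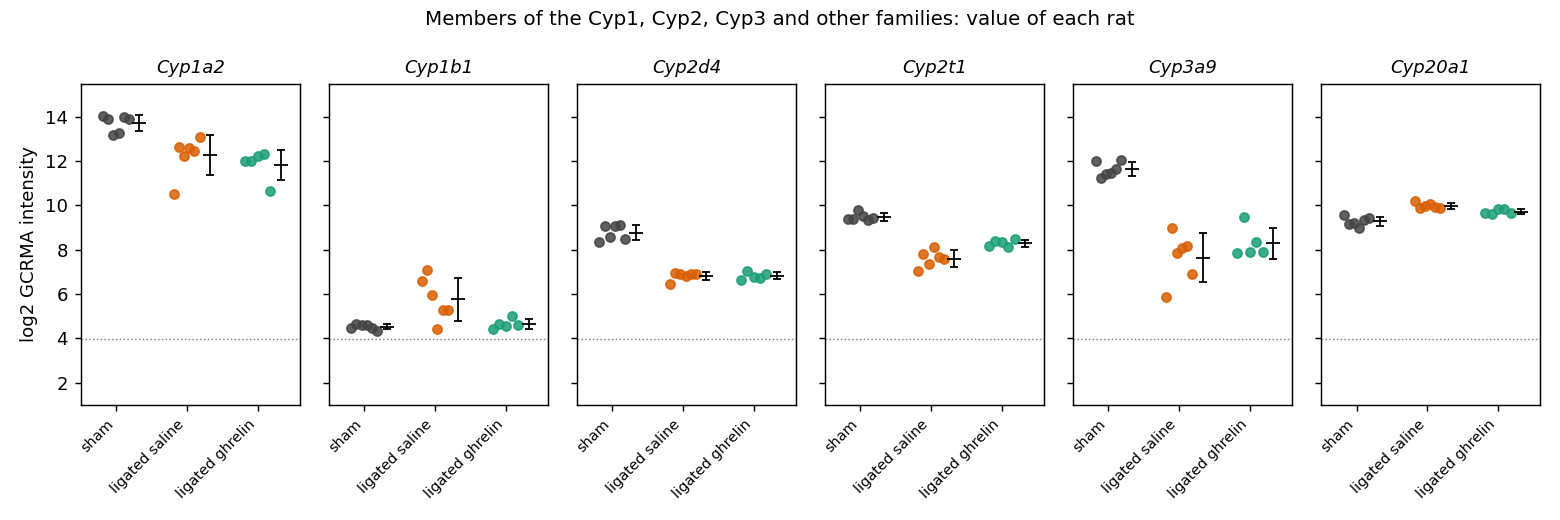
Log2 intensity (vertical axis) of 6 P450 genes in every rat (points), by group, with the mean ± SD in black and the filter level of 3.95 dotted. Cyp1a2, Cyp2d4, Cyp2t1 and Cyp3a9 are lower in all ligated saline rats than in any sham rat, Cyp20a1 is higher, and Cyp1b1 is higher in 5 of 6.

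Both members of the Cyp3 family, the main drug and steroid oxidases of liver, fell. Over all genes tested, 27.2% were called lower and 44.5% had groups that did not overlap. Cyp3a9 ran from 11.25 to 12.07 in sham (median 11.56) and from 5.88 to 8.96 in ligated saline (median 7.97). The lowest sham value was above the highest ligated value, and the fall of 4.0 ± 0.414 on the log2 scale (15.9-fold lower, adjusted p = 4.60e-07) was the steepest of any member. Cyp3a23-3a1, the isoform induced through PXR, ran from 12.93 to 14.12 in sham (median 13.49) and from 11.80 to 12.64 in ligated saline (median 12.22). Its groups did not overlap either, and it fell by 1.23 ± 0.245 (2.35-fold lower, adjusted p = 0.000363). Both genes lie on chromosome 12 of GRCr8, at 21919955 to 21960160 and at 14369950 to 14398803. In the promoters printed above, AGGTCA stands at -164 in Cyp3a23-3a1, and Cyp3a9 has no AGGTCA in its window. Other spellings of the nuclear receptor core were not searched, so no difference in such sites between these genes follows.

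The non-P450 targets of CAR and PXR did not share 1 direction. Of 11 tested, 8 fell and 3 rose, with a median of -1.44, beside 27.2% of all genes lower and 37.5% higher. Abcc2, the canalicular conjugate exporter, fell by 2.42 ± 0.201 (adjusted p = 4.26e-08). Abcc3, the basolateral exporter, rose by 4.54 ± 0.186 (adjusted p = 3.64e-11).

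In the Cyp4 family, 5 of 9 tested members (55.6%) fell, 1 rose and 3 were not called. The median change was -0.71, and the shares over all genes were 27.2% lower and 37.5% higher. The single rise was that of Cyp4f5. Its 6 sham values ran from 3.23 to 4.0 with a median of 3.61, and only 1 of them exceeded the filter level. In ligated saline the values ran from 6.72 to 7.89 with a median of 7.63. Every ligated rat was well above every sham rat, and Cyp4f5 rose by 3.88 ± 0.180 (14.7-fold, adjusted p = 9.50e-11). Because 5 of 6 sham values lie under the filter level, the size of that fold is approximate, and the ligated saline mean was 11.6-fold above the level itself.

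The Cyp4f subfamily inactivates leukotrienes and hydroxylates long fatty acids, and no other member of it on chromosome 7 was called higher. In GRCr8 the order is Cyp4f17 (12169366 to 12186731), Cyp4f5 (12194567 to 12209495), Cyp4f4 (12367711 to 12384010), Cyp4f1 (12661357 to 12672952) and Cyp4f6 (12680799 to 12708378). Cyp4f17, the nearest of them to Cyp4f5, ran from 5.37 to 6.49 in sham (median 5.94) and from 5.57 to 6.20 in ligated saline (median 5.87), a change of -0.01 ± 0.186 (adjusted p = 0.952). Its groups overlapped fully. Cyp4f4 ran from 11.91 to 12.06 in sham (median 11.95) and from 9.42 to 10.52 in ligated saline (median 10.42). It fell by 1.70 ± 0.149 (3.25-fold lower, adjusted p = 7.38e-08). Cyp4f6 ran from 10.55 to 11.05 in sham (median 10.96) and from 9.17 to 10.06 in ligated saline (median 9.61). It fell by 1.32 ± 0.142 (2.50-fold lower, adjusted p = 6.78e-07). Cyp4f1 ran from 13.60 to 13.88 in sham (median 13.71) and from 12.27 to 12.91 in ligated saline (median 12.54). It fell by 1.19 ± 0.106 (2.28-fold lower, adjusted p = 9.27e-08). In Cyp4f4, Cyp4f6 and Cyp4f1 the groups did not overlap, as in 44.5% of all genes tested. The Cyp4f genes are close relatives, and whether their probes bind each other's transcripts was not tested.

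**Figure D3:**
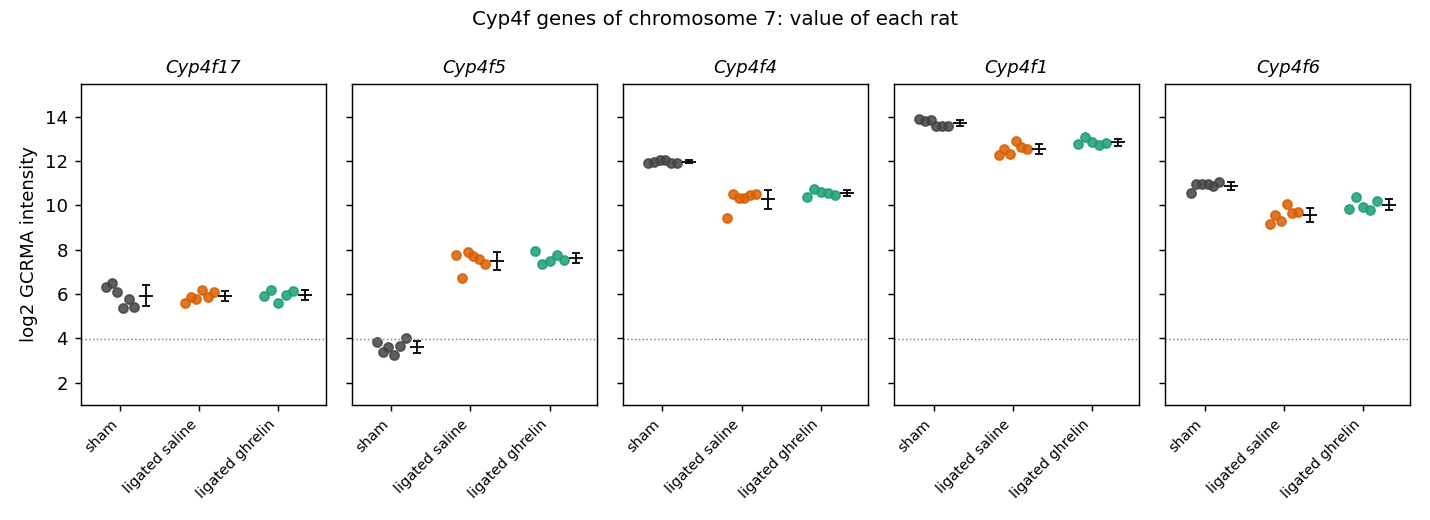
Log2 intensity (vertical axis) of the Cyp4f genes of rat chromosome 7 in every rat (points), by group and in chromosomal order, with the mean ± SD in black and the filter level of 3.95 dotted. Cyp4f5 lies at 3.23 to 4.0 in sham and above 6.7 in every ligated rat, while Cyp4f4, Cyp4f1 and Cyp4f6 are lower in both ligated groups and Cyp4f17 overlaps in all groups.

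Cyp4b1, which hydroxylates medium-chain fatty acids, ran from 5.68 to 7.16 in sham (median 6.55). The ligated saline values were 2.96, 5.82, 3.55, 3.33, 3.17 and 4.60, of which only those of ligated saline 2 and 6 exceeded the filter level. The value of ligated saline 2 reached into the sham range. The gene fell by 2.58 ± 0.403 (5.97-fold lower, adjusted p = 3.60e-05), a size that rests in part on values under the filter level, and its sham mean was 5.77-fold above that level. Cyp4v3, a fatty acid hydroxylase, fell by 0.71 ± 0.231 (adjusted p = 0.0134), and a further probe set gave -1.31.

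The PPAR alpha targets Cyp4a1 and Cyp4a3, the main fatty acid hydroxylases of rat liver, were not called. Cyp4a1 changed by -0.29 ± 0.239 (adjusted p = 0.300). Cyp4a3 changed by -0.64 ± 0.279 (adjusted p = 0.0561), and it was called lower with array medians set equal (-0.83, adjusted p = 0.0186) and without sham 5 (-0.77, adjusted p = 0.0282), ligated saline 4 (-0.75, adjusted p = 0.0347) or ligated saline 6 (-0.85, adjusted p = 0.00775). Among 12 tested non-P450 targets of PPAR alpha, 7 fell and none rose, beside 27.2% of all genes lower and 37.5% higher. The median of these targets was -0.49. Fabp1, the liver fatty acid binding protein, fell by 1.27 ± 0.164 (adjusted p = 4.95e-06), and Acadm, a mitochondrial acyl-CoA dehydrogenase, by 0.88 ± 0.125 (adjusted p = 1.37e-05).

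In the other families, 1 of 5 tested members rose, 1 fell and 3 were not called. The median was -0.24, and the shares over all genes were 37.5% higher and 27.2% lower. Cyp20a1, a P450 with no established substrate, ran from 8.97 to 9.57 in sham (median 9.27) and from 9.87 to 10.21 in ligated saline (median 9.95). Without overlap between the groups, it rose by 0.71 ± 0.0957 (1.63-fold, adjusted p = 7.95e-06). Cyp39a1, which hydroxylates oxysterols on a side route of bile acid synthesis, ran from 8.08 to 8.75 in sham (median 8.27) and from 6.61 to 7.69 in ligated saline (median 7.42). It fell by 1.03 ± 0.262 (2.04-fold lower, adjusted p = 0.00276), also without overlap.

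Cyp51, the lanosterol demethylase of cholesterol synthesis, gave different answers on its probe sets. The brighter one changed by -0.24 ± 0.152 (adjusted p = 0.186) and had overlapping groups. The dimmer one fell by 0.91 ± 0.212 (adjusted p = 0.00139) and had separate groups. The brighter one was called lower without ligated saline 5 (-0.34, adjusted p = 0.0497) and with array medians set equal (-0.43, adjusted p = 0.0301), and the mean of both probe sets was called lower at -0.57 (adjusted p = 0.0101). Cyp17a1, an enzyme of androgen synthesis, ran from 4.68 to 8.15 in sham and from 4.18 to 6.90 in ligated saline. Its change of -1.14 ± 0.573 (adjusted p = 0.0945) was not called, but passed after quantile normalization (-1.42, adjusted p = 0.0346) and without sham 5 (-1.53, adjusted p = 0.0193), ligated saline 3 (-1.42, adjusted p = 0.0442) or ligated saline 4 (-1.41, adjusted p = 0.0455). Cyp26b1, which clears retinoic acid, changed by -0.13 ± 0.351 (adjusted p = 0.760). Among 10 tested partners in retinoid and vitamin D metabolism, 7 fell and 3 rose, beside 27.2% of all genes lower and 37.5% higher. The median of these partners was -0.50. Dhrs3, a retinal reductase, fell by 1.26 ± 0.0929 (adjusted p = 1.19e-08) and Rdh16, a retinol dehydrogenase, fell by 4.52 ± 0.358 (adjusted p = 2.64e-08).

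**Figure D4:**
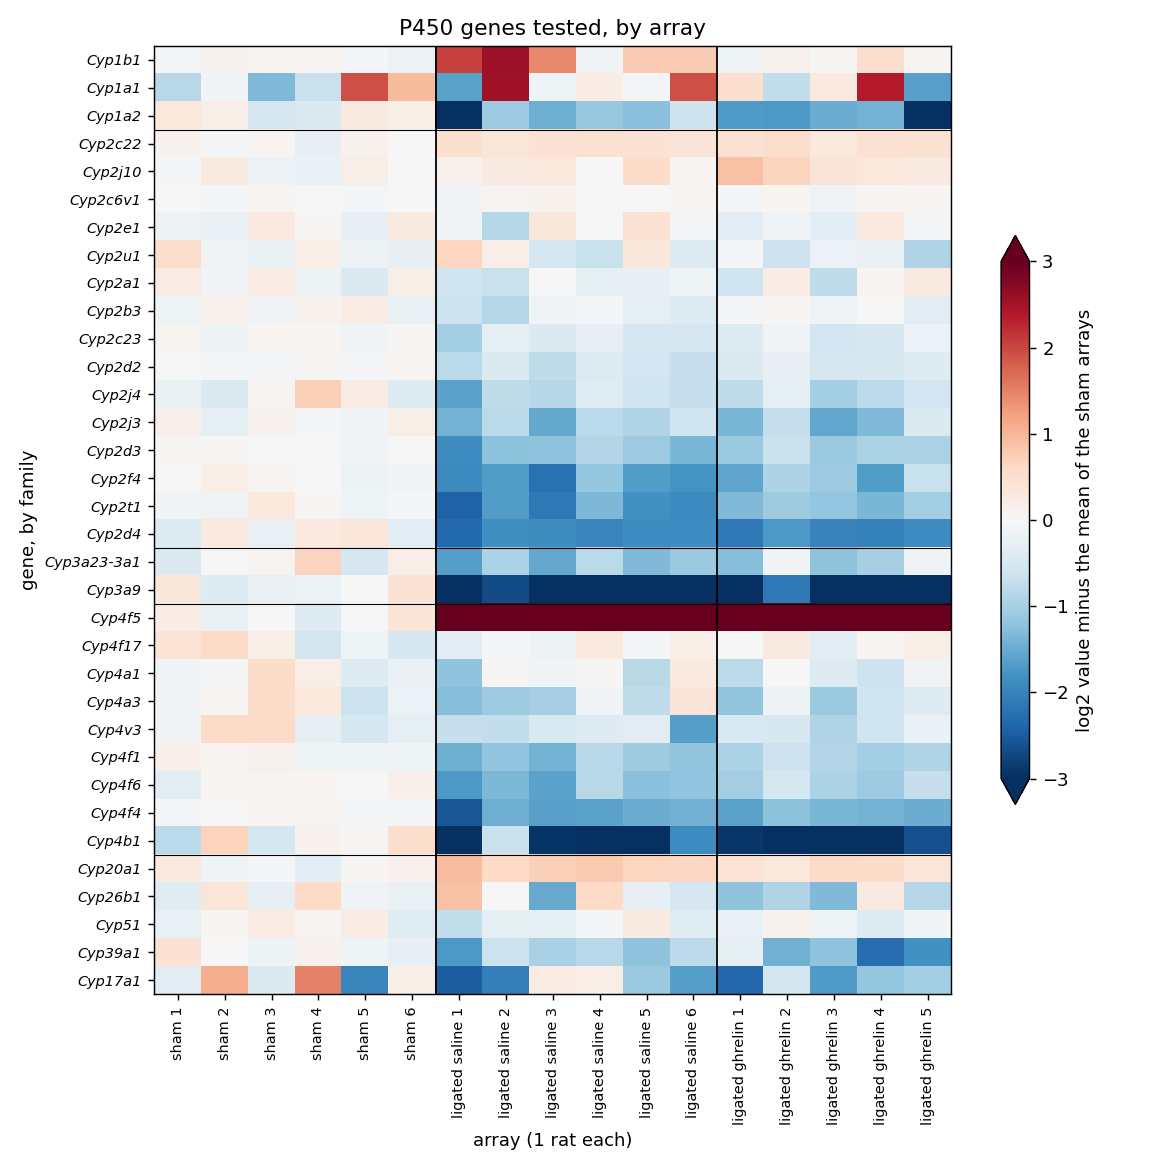
Log2 value minus the mean of the sham arrays (colour, saturated beyond 3 in either direction) of the 34 tested P450 genes (rows, by family) on every array (columns, 1 rat each). Most Cyp2, Cyp3 and Cyp4 rows are blue in all ligated rats, Cyp4f5 is red in all of them, and ligated saline 1 is the lowest ligated saline array for 21 of the 34 genes.

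The rats of a group differed in how far the P450 genes were lowered. The median deviation of the 34 members from the sham mean lay between -0.07 and 0.07 on the sham arrays. On the ligated saline arrays it was -1.24, -0.71, -0.64, -0.32, -0.59 and -0.55 in the order of their numbers. Ligated saline 1 stood lowest and ligated saline 4 highest, and no ligated array reached the sham range. Ligated saline 1 had the lowest value of its group for 21 of 34 members, and for 14 of the 18 that fell. The ligated ghrelin arrays had -0.68, -0.38, -0.89, -0.60 and -0.41, inside the range of the ligated saline arrays.

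Most tested electron donors and partners of P450 enzymes, and most tested genes of heme synthesis and breakdown, fell as well. Over all genes, 27.2% were called lower and 37.5% higher. Of 7 tested electron donors and partners, 6 fell and none rose, with a median of -0.85, while 1 rose after quantile normalization. Por, the reductase that feeds all microsomal P450s, fell by 1.43 ± 0.229 (adjusted p = 4.50e-05) and Pgrmc1, a heme-binding P450 partner, by 0.43 ± 0.0661 (adjusted p = 3.05e-05). Of 11 tested genes of heme synthesis and breakdown, 9 fell and 2 rose, with a median of -0.69. Among the synthesis enzymes, Alad fell by 1.28 ± 0.0924 (adjusted p = 9.36e-09) and Fech, which inserts the iron, by 1.04 ± 0.0880 (adjusted p = 5.40e-08).

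The 16 tested receptors and partners that regulate P450 genes had 7 that fell, 1 that rose and 8 not called, with a median of -0.74. Their share called lower was above the 27.2% of all genes, while their share called in either direction was below the 64.7% of all genes. Hnf4a, a factor that maintains hepatocyte gene expression, fell by 0.79 ± 0.0970 (adjusted p = 2.83e-06), and Nr1h4, the bile acid receptor FXR, by 1.16 ± 0.149 (adjusted p = 4.98e-06). Of 14 tested oxidases and reductases of drug metabolism that are no P450s, 11 fell and 2 rose, with a median of -1.18. Aldh2, the mitochondrial aldehyde dehydrogenase, fell by 0.90 ± 0.0897 (adjusted p = 3.11e-07) and Maob, a monoamine oxidase, by 1.26 ± 0.129 (adjusted p = 4.14e-07). Some genes stand in more than 1 list, among them Por, Alas1, Ahrr, Gsta2, Rxra, Vdr, Aldh1a1 and Lrat.

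**Figure D5:**
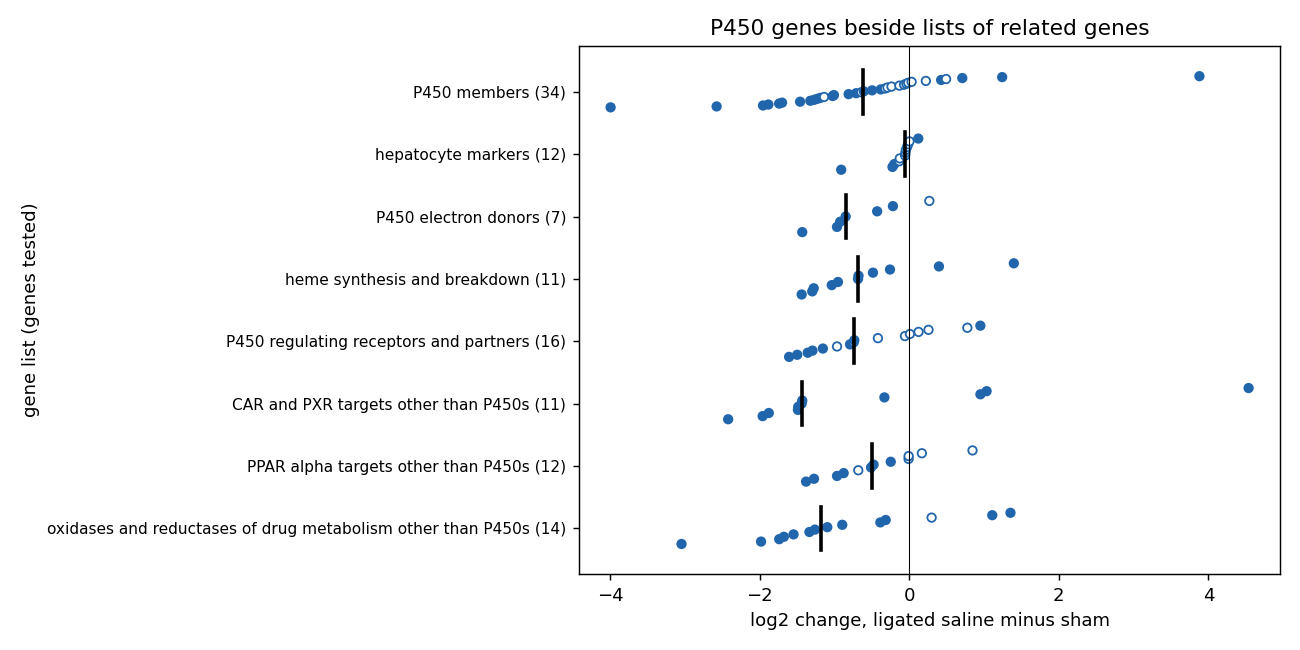
Log2 change from sham to ligated saline (horizontal axis) of each tested gene (points, filled where called, spread vertically for legibility) for the 34 P450 members and 7 other lists (rows, tested genes in brackets), with the median as a black bar. The hepatocyte markers centre on -0.05, while the P450 members and the 6 other lists have medians from -1.44 to -0.49. Lists not drawn are the arachidonate partners (median 0.97), the aryl hydrocarbon receptor targets (-0.11), the retinoid and vitamin D partners (-0.50) and the markers of other cell types. With array medians set equal, 9 of the 12 hepatocyte markers were lower, with a median of -0.24. Alb, listed among them, lay near the highest value of any array, where compression was not tested. The electron donor row also holds the partners Pgrmc1 and Pgrmc2.

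Markers of other cell types moved with ligation too, beside 37.5% of all genes called higher and 27.2% lower. All 8 tested cholangiocyte markers rose, with a median of 5.28, and their summed level, given as the mean deviation from sham, lay between 4.23 and 5.91 on the ligated saline arrays against -0.24 to 0.29 in sham. For stellate cells and myofibroblasts, 9 of 10 markers rose and the other 1 fell, around a median of 3.14 and array means of 2.31 to 3.25. All 9 macrophage markers and all 4 neutrophil markers rose, with medians of 1.25 and 2.97 and array means of 0.98 to 1.56 and 1.72 to 3.48. Of 3 lymphocyte markers 2 rose (median 1.10, array means 0.26 to 1.87), and of 7 endothelial markers 3 rose and 1 fell (median 0.17, array means 0.19 to 0.56). Hepatocyte markers had 3 of 12 lower and 1 higher, with a median of -0.05 and array means of -0.37 to -0.01, and 9 of 12 lower with array medians set equal (median -0.24). With ligation, every list median given here kept its sign under both other scalings, except that of the endothelial markers, which was -0.02 with equal array medians. The part of these cell types in the P450 results was not tested. The clearest markers were Cftr at 5.69 ± 0.244 and Sctr at 6.49 ± 0.292 for cholangiocytes, Col3a1 at 2.50 ± 0.138 and Rgs5 at 3.09 ± 0.151 for stellate cells, and Apoh at -0.22 ± 0.0512 and Ttr at -0.20 ± 0.0627 for hepatocytes. C1qa and C1qb, made by macrophages, stood at 1.26 ± 0.144 and 1.50 ± 0.157, S100a8 and S100a9 of neutrophils at 3.51 ± 0.290 and 3.27 ± 0.333, Cd4 and Lck of lymphocytes at 1.10 ± 0.290 and 1.34 ± 0.364, and Ramp2 and Kdr of endothelium at 1.21 ± 0.148 and -0.82 ± 0.123.

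Ghrelin after ligation was accompanied by few called changes among the P450 genes. Against ligated saline, 1 of 34 members rose, Cyp2t1, and none fell (limma, adjusted p under 0.05), while 10 (29.4%) had an unadjusted p under 0.05, beside 22% of all genes tested. Over all genes tested 2.34% were called, 1.76% higher and 0.585% lower, and the share of the members, 2.94%, is near that background. The median change was 0.08 for the members and 0.01 for all genes. By family it was -0.42 in Cyp1, 0.15 in Cyp2, 0.57 in Cyp3, 0.12 in Cyp4 and -0.26 in the others, each with the same sign under both other scalings. Only Cyp20a1 had groups that did not overlap, 2.94% of the members beside 4.53% of all genes.

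Cyp2t1 read 8.14, 8.40, 8.33, 8.11 and 8.46 in the ligated ghrelin rats, beside 7.05 to 8.14 in ligated saline. All 5 were above the ligated saline mean of 7.59, and the ranges met at the values of ligated saline 4 and ligated ghrelin 4. The rise was 0.70 ± 0.153 (1.62-fold, adjusted p = 0.0358), and the ligated ghrelin rats remained below every sham rat. The call was lost without ligated saline 1 (adjusted p = 0.0693), ligated saline 3 (0.0729), ligated saline 5 (0.0604), ligated saline 6 (0.0547), ligated ghrelin 1 (0.0592), ligated ghrelin 2 (0.0977), ligated ghrelin 3 (0.0644) or ligated ghrelin 5 (0.0734). It was also lost without the filter (0.0558) and with only the ligated groups in the fit (0.0747). The change itself stayed between 0.59 and 0.80 in all 18 alternatives. In the window of Cyp2t1 printed above, which lies wholly within the listed gene, GCGTG stands at -151 and 25 relative to the start used.

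The next lowest p-values belonged to Cyp1b1, Cyp4f6, Cyp2f4, Cyp4f1 and Cyp20a1, none of them called. Cyp1b1 read 4.40, 4.65, 4.57, 5.00 and 4.59 in ligated ghrelin, a change of -1.13 ± 0.335 (adjusted p = 0.0762). These 5 values lay near the sham range of 4.34 to 4.64, and 1 ligated saline value, 4.42, fell among them. Without that array, ligated saline 4, Cyp1b1 passed the threshold at -1.40 (adjusted p = 0.0199). Cyp4f6 read 9.84, 10.36, 9.95, 9.80 and 10.21, a change of 0.46 ± 0.149 (adjusted p = 0.0966). Cyp2f4 read 8.68, 9.35, 9.19, 8.60 and 9.61, a change of 0.55 ± 0.186 (adjusted p = 0.105). Cyp4f1 read 12.77, 13.10, 12.86, 12.72 and 12.81, a change of 0.31 ± 0.112 (adjusted p = 0.122). In each of these 3 genes all 5 ghrelin values were above the ligated saline mean and overlapped its range. Without ligated saline 4 they passed the threshold, at 0.56 for Cyp4f6 (adjusted p = 0.0352), 0.67 for Cyp2f4 (adjusted p = 0.0413) and 0.39 for Cyp4f1 (adjusted p = 0.0455). With Cyp2t1 at 0.80 (adjusted p = 0.0113) and Cyp1b1, the count of called members was then 5. The share of all genes called without that array is not given here, so no result about the members follows from this count. Cyp20a1 read 9.68, 9.60, 9.85, 9.82 and 9.65, all below every ligated saline value, with a change of -0.26 ± 0.100 (adjusted p = 0.146).

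Cyp3a9, Cyp4f5, Cyp4b1 and Cyp2d4, which changed more than Cyp2t1 after ligation, were not called with ghrelin, and neither were Cyp3a23-3a1 and Cyp1a2. Cyp3a9 read 7.85, 9.49, 7.89, 8.36 and 7.90 in ligated ghrelin, overlapping ligated saline, with a change of 0.65 ± 0.434 (adjusted p = 0.401). Cyp3a23-3a1 read 12.17, 13.34, 12.23, 12.46 and 13.33, of which the 2 highest reached into the sham range, with a change of 0.49 ± 0.257 (adjusted p = 0.280). Cyp4f5 read 7.93, 7.33, 7.51, 7.76 and 7.52, a change of 0.12 ± 0.188 (adjusted p = 0.755). Cyp2d4 read 6.62, 7.04, 6.78, 6.74 and 6.91, a change of 0.00 ± 0.148 (adjusted p = 0.994). Cyp1a2 read 12.02, 12.01, 12.22, 12.31 and 10.66, a change of -0.42 ± 0.386 (adjusted p = 0.559). All of these ranges overlapped those of ligated saline. A gene that was not called is not thereby shown to be equal.

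The rest of the members were not called either. Cyp26b1 read 5.27, 5.57, 5.14, 6.76 and 5.63 in ligated ghrelin, within the ligated saline range of 4.96 to 7.36, with a change of -0.67 ± 0.368 (adjusted p = 0.305). Cyp2b3 (0.30), Cyp2d2 (0.20), Cyp2d3 (0.32) and Cyp2j10 (0.28) each had an unadjusted p under 0.05 and an adjusted p of 0.172 to 0.227, with all 5 ghrelin values above the ligated saline mean. Cyp4f4 changed by 0.28 ± 0.156 (adjusted p = 0.307), and its 5 values were 10.37, 10.75, 10.59, 10.56 and 10.49. Cyp4b1 read 3.55, 3.33, 3.17, 3.44 and 3.85, all under the filter level, so that its change of -0.43 ± 0.422 (adjusted p = 0.582) is between low signals. Cyp2c22 read 14.95, 15.03, 14.82, 14.95 and 14.95, a change of 0.01 ± 0.0727. Cyp39a1 read 8.04, 6.87, 7.11, 6.05 and 6.50, a change of -0.38 ± 0.274 (adjusted p = 0.436). The remaining members that were not called had changes of 0.16 for Cyp2a1, 0.15 for Cyp2c23, -0.03 for Cyp2c6v1, -0.06 for Cyp2e1, -0.07 for Cyp2j3, 0.13 for Cyp2j4 and -0.32 for Cyp2u1. In Cyp4 and the other families they were -0.09 for Cyp4a1, -0.05 for Cyp4a3, 0.06 for Cyp4f17, 0.18 for Cyp4v3, -0.23 for Cyp17a1 and 0.10 for Cyp51, while Cyp1a1 stood at -0.33.

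Of the 91 tested partner genes of all lists, 2 were called with ghrelin, near the 2.34% of all genes tested. Alad, of heme synthesis, rose by 0.46 ± 0.0969 (adjusted p = 0.0331), 1 of 11 genes of its list. Ptgs2, the inducible cyclooxygenase, fell by 1.07 ± 0.246 (adjusted p = 0.0389), 1 of 11 arachidonate partners. Its means in sham and in ligated ghrelin, 3.27 and 3.88, were below the filter level. In the other partner lists no gene was called by limma at an adjusted p under 0.05. These held 7 electron donors and partners, 16 receptors and partners, 3 aryl hydrocarbon receptor targets and 11 CAR and PXR targets. They also held 12 PPAR alpha targets, 14 oxidases and reductases and 10 retinoid and vitamin D partners. Over the 91 tested genes of all partner lists together, 23 (25.3%) had an unadjusted p under 0.05, beside 22% of all genes tested. The lowest p-values there belonged to Cyb5r3 (0.46) and Pgrmc2 (0.33), Hnf4a (0.35, adjusted p = 0.0714) and Ahr (-1.11, adjusted p = 0.155), Gsta1 (0.47) and Tiparp (0.16), Thrsp (0.85) and Gadd45b (-0.95), Vnn1 (-0.95) and Ehhadh (0.43), Maoa (-0.38) and Maob (0.40), and Dhrs3 (0.22) and Lrat (-0.40), as log2 changes. With array medians set equal, 1 of the 16 receptors and partners was called higher. Among the 53 cell type markers 2 were called, beside 2.34% of all genes, of which 0.585% were lower. Both were among the 10 stellate cell markers and fell, Col3a1 by 0.68 ± 0.145 (adjusted p = 0.0342) and Rgs5 by 0.70 ± 0.158 (adjusted p = 0.0389). None of 12 hepatocyte, 8 cholangiocyte, 9 macrophage, 4 neutrophil, 7 endothelial or 3 lymphocyte markers was called by limma, while 11 of all 53 markers (20.8%) had an unadjusted p under 0.05, beside the same 22%, and their part in the result for Cyp2t1 was not tested.

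Rats with both ligation and ghrelin were last set against sham, a comparison that holds both treatments together and shares the sham arrays with the comparison of ligation alone. Of the 34 members, 16 fell and 4 rose, beside 21.2% and 35% of all genes, of which 56.2% were called in all. The median change was -0.61. The 4 that rose were Cyp4f5 at 4.0 ± 0.188 (adjusted p = 1.65e-10), Cyp2c22 at 0.44 ± 0.0727 (adjusted p = 8.98e-05), Cyp20a1 at 0.44 ± 0.100 (adjusted p = 0.00139) and Cyp2j10 at 0.50 ± 0.128 (adjusted p = 0.00339). After quantile normalization only 3 members rose and 19 fell, beside 30.3% and 27.8% of all genes. With array medians set equal 4 rose and 20 fell, beside 28.3% and 29.1% of all genes. The ligated ghrelin mean of Cyp4f5 was 12.6-fold above the filter level, under which 5 of 6 sham values lay. Cyp1b1 stood at 0.12 ± 0.335 (adjusted p = 0.788), beside 1.24 with ligation alone. Cyp2b3 stood at -0.08 ± 0.138 (adjusted p = 0.630), beside -0.38, and Cyp4v3 at -0.53 ± 0.242 (adjusted p = 0.0760), beside -0.71.

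Decreases were again led by Cyp3a9, which fell by 3.34 ± 0.434 (10.1-fold lower, adjusted p = 8.30e-06). Cyp4b1 was under the filter level in every ligated ghrelin rat and was at least 5.77-fold lower than in sham (adjusted p = 1.83e-05), against that level. Cyp2d4 fell by 1.95 ± 0.148 (adjusted p = 3.02e-08), Cyp1a2 by 1.88 ± 0.386 (adjusted p = 0.000651), Cyp4f4 by 1.42 ± 0.156 (adjusted p = 1.60e-06) and Cyp39a1 by 1.41 ± 0.274 (adjusted p = 0.000410). Cyp2t1 and Cyp2f4 both fell by 1.19, with adjusted p = 7.44e-06 and 5.36e-05, beside -1.88 and -1.74 with ligation alone. Smaller decreases were those of Cyp2j3 (-1.08), Cyp2d3 (-0.95), Cyp4f1 (-0.88), Cyp4f6 (-0.86), Cyp3a23-3a1 (-0.74), Cyp2j4 (-0.68), Cyp2d2 (-0.41) and Cyp2c23 (-0.35).

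The 13 members that were not tested had low signals. For 12 of them no array exceeded the filter level, among them Cyp11a1, Cyp11b1, Cyp19a1 and Cyp21a1, the steroid hormone enzymes of adrenal and gonad, Cyp27b1, which activates vitamin D in kidney, and Cyp46a1, the cholesterol hydroxylase of brain. Cyp26a1, the retinoic acid hydroxylase, reached 3.71 and Cyp2s1 reached 2.94 on their highest arrays. Cyp2a3, Cyp2b12, Cyp2b21 and Cyp2g1 made up the rest, with highest values of 2.10 to 2.33. Cyp4a8 exceeded the level on 3 arrays and reached 5.80 at most. No statement on presence or absence of these transcripts follows from signals under that level.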

How the data were processed

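Liver RNA of 17 rats was hybridised to Affymetrix Rat Genome 230 2.0 arrays. The authors deposited linear intensity values per probe set made with GCRMA, per the submitters' processing notes; its version and settings, and any batch, were not given in the sources used here. Values were converted to log2 without a pseudocount. Of 31042 probe sets that are no controls, 15965 exceeded the median deposited value (15.5) on at least 5 arrays and were kept. The model had 3 group means and used limma 3.58.1 under R 4.3.3 (eBayes, 14 residual and 2.54 prior degrees of freedom), with Benjamini-Hochberg adjustment over the kept probe sets. A gene is its kept probe set of highest mean. The script was tested on simulated data.

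The members, gene lists and alternatives were chosen with earlier results of these data known. Every tested member is named. Full values are given for the 3 largest called increases and decreases of each family with ligation, and for the called member with ghrelin or the 6 members of lowest p there; other genes are the 2 of lowest p in each list, except Alb, named as a check of the tissue after its values were seen. Alternatives were no filter, a stricter filter (1 log2 unit higher, on 6 arrays), quantile normalization, equal array medians, the mean of the probe sets of a gene, eBayes with trend and robust options, only the groups compared, and leaving out each array. Gene symbols are those of the platform annotation; all 47 members matched RefSeq (GRCr8) by gene identifier. Precision is limited by the number of arrays.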

Additional observations from a re-analysis of the deposited data

Results flagged for a closer look

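In 102 groups checked (34 genes in 3 groups) 7 had a sample far from the others on the log2 scale, where about 5.1 would be flagged by chance at 1 in 20. Ligated saline 1 was the low sample in 4 of them. It read 10.5 for Cyp1a2, beside 12.2 to 13.1 in the other rats of its group, and 12.8 for Cyp2c23, beside 13.3 to 13.6. It also read 6.45 for Cyp2d4, beside 6.80 to 6.93, and 9.42 for Cyp4f4, beside 10.3 to 10.5. All of these genes remained called lower with ligation without that array. Ligated ghrelin 5 read 10.7 for Cyp1a2, beside 12.01 to 12.31 in its group. Ligated saline 6 read 9.84 for Cyp4v3, beside 10.8 to 11.2, and sham 1 read 10.5 for Cyp4f6, beside 10.9 to 11.1.

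Cyp2t1 was flagged because its change from sham differed between the ligated ghrelin and ligated saline groups. That difference was 0.70 on the log2 scale, which is the comparison of the ligated groups itself (limma, adjusted p = 0.0358). The call was lost in 10 of 18 alternatives. No group received ghrelin without ligation, so whether the effect of ghrelin depends on ligation could not be estimated.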

How the results depend on the processing

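No paired analysis was made because the labels give no pairing. The titles only number the arrays in series, so they hold no information on pairing. With ligation, 18 members were lower as reported and 29 of 47 (61.7%) without the filter, where low signals shift together. The share of all genes called lower rose as well, from 27.2% to 42.9%. Ligated ghrelin against sham then had 31 members called and 27 lower (57.4%), beside 62.7% and 37.1% of all genes. The count called, all higher, with ghrelin was 0 without the filter and 0 with only the groups compared in the fit. When each array was left out it ran from 0 to 5 called, 0 to 4 higher and 0 to 1 lower, the highest without ligated saline 4. The shares of all genes called in those fits are not given here. Over all genes the 228 called with ghrelin became 105 without the filter, 368 after quantile normalization, 450 with equal array medians and 72 with only the ligated groups. The median change of Cyp2 with ligation was -0.69 with equal array medians, and that of the other families was -0.57 with the mean of the probe sets. The median of the other families with ghrelin ran from -0.47 to -0.25 when each array was left out, lowest without ligated saline 1, and was -0.37 without ligated ghrelin 2. Cyp2c6v1 with ligation turned to -0.16 with equal array medians. All other medians by family moved by less than the spread between rats in the alternatives tried. That spread was wide in Cyp1, whose median with ligation was 0.49 as reported but -0.11 under the stricter filter, which left 2 of its 3 genes. When each array was left out it ran from 0.08, without ligated saline 2, to 0.91, without ligated saline 1. No other family median changed sign. Without the filter, the share of higher calls with ligation over all genes was 39.3%.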

Other observations

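Probe sets that name several genes, of which at least 1 is a P450, were not used above because they assign no gene. Of 7 such probe sets 4 passed the filter. All 4 were called lower with ligation, beside 27.2% of all genes tested. Their changes were -0.86, -1.01, -3.18 and -0.89 on the log2 scale (limma, adjusted p of 9.97e-05, 0.00292, 2.82e-07 and 0.000116). With ghrelin these probe sets changed by 0.10, 0.47, 0.50 and 0.01 (adjusted p of 0.741, 0.335, 0.403 and 0.972).

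Signals under the filter level shifted together with ligation. Of 13749 probe sets under the level on every array, 81.3% were lower in all ligated saline rats than in any sham rat, with a median change of only -0.08. The 15 P450 probe sets among them behaved alike in size: 13 were lower without overlap, with a median of -0.07 and a range of -0.18 to 0.07.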
